A study of Homo sapiens with 2 samples.

Results

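The Wnt ligands, their cell surface receptors and the proteins that tune them outside the cell were examined in AGS, a gastric adenocarcinoma cell line. The group was set by name: 48 listed genes, each read by the probe sets that the array annotation gives to that gene alone. Of these, 45 genes could be read, out of 19775 genes on the array. WNT3 and FZD8 were left out because each of their 3 probe sets is also assigned to another gene, and WNT3A was not analysed here. AGS.W cells carried a lentiviral vector with the coding region of WTX (AMER1) and AGS.veh cells were the negative control line, and the methods describe puromycin selection of stable lines after infection. Each line was read on a single Affymetrix U133 Plus 2.0 array, so there was no replicate, and no p-value or error across cultures could be given. Every difference below is AGS.W minus AGS.veh between these 2 arrays, on the scale of the deposited values. This scale was taken as log2 because the labels list RMA, a method that gives log2 values, and because the values lay between 0.31 and 13.11. No source used here states the scale, and which of MAS5 and RMA, both listed, gave the values is not settled. On it 1 stands for 2-fold, and every fold below rests on this reading.

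Wnt proteins are lipid-modified secreted ligands that bind Frizzled receptors together with the co-receptors LRP5 and LRP6. In the branch through beta-catenin, this stops a destruction complex, to which WTX belongs, from marking beta-catenin for degradation, and TCF/LEF factors then switch on target genes. WNT5A is best known for a branch that does not need beta-catenin and runs through ROR2 and RYK to planar polarity and calcium signalling. R-spondins amplify the response by binding LGR4 or LGR5 and drawing off ZNRF3 and RNF43, a pair of ubiquitin ligases that remove Frizzled from the surface. Dickkopf proteins block LRP5 and LRP6 with the help of KREMEN1, whereas SFRP proteins and WIF1 bind the ligands themselves.

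Both arrays had nearly the same distribution, and their medians were at log2 signals of 4.02 (AGS.W) and 4.03 (AGS.veh). The 18 hybridisation control probe sets differed by between -0.16 and 0.01. WTX itself was read by a single probe set below both medians, 3.70 in AGS.W and 3.86 in AGS.veh. Since only the coding region was put into the vector and the position of that probe set was not settled, it does not check the labels. The extraction note in the labels speaks of brain cortex, while the sample descriptions name AGS. Of 9 epithelial markers, 6 passed the signal filter given next: KRT8, KRT18, KRT7, EPCAM, CLDN4 and ELF3, with differences from -0.88 for KRT7 (8.53 in AGS.W against 9.42 in AGS.veh) to 0.92 for EPCAM (6.88 against 5.96). The other probe sets of KRT7 gave 0.02, 0.00 and -0.22, and its mean was -0.27. CDH1, KRT19 and LGALS4 lay below the median on both arrays. Of 11 glial markers 6 passed, with MBP and CNP at 6.10 and 7.62 in AGS.W against 6.19 and 7.59 in AGS.veh, while GFAP, S100B, AQP4, GJA1 and OLIG2 lay below the median on both arrays. Of 12 neuronal markers 6 passed, TUBB3 and GAD1 at 9.94 and 7.06 in AGS.W against 9.98 and 7.11 in AGS.veh among them. SYT1, NEFL, NEFM, MAP2, STMN2 and GAD2 lay below the median on both arrays. On the probe set of highest mean signal, SNAP25 was the 1 marker of these 3 lists that was 2-fold apart. It had 5.15 in AGS.W, while its 3.57 in AGS.veh lay below the median. Its other probe sets gave 0.49 each, and its mean of 0.85 was under 2-fold. ELF3 differed by 0.12 on its probe set of highest mean signal. Its other probe sets, above the median on both arrays, gave -0.99 and -1.21, and its mean was -0.69. Of 12 fibroblast and stroma markers 6 passed, from -0.98 for PDGFRB to 0.94 for COL1A1, which averaged 0.29 over its probe sets. VIM among them had 11.56 in AGS.W against 11.47 in AGS.veh. Of 6 endothelial markers 2 passed, and of 6 leukocyte markers 1. No marker of these further lists was 2-fold apart. The part of other cells in the differences of the Wnt genes was not tested. A lower signal cannot tell fewer expressing cells from less RNA per cell.

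In all, 4 genes stood at least 2-fold apart. WNT10B was higher in AGS.W, and WNT5A, ZNRF3 and RSPO3 were lower. A gene was represented by its probe set of highest mean signal and counted if it was not below the median of AGS.W or not below that of AGS.veh, which held for 28 of the 45 members and on both arrays for 25. Higher by 2-fold or more was 1 of these 28 (3.57%), beside 1.83% of all 12811 genes that passed the same filter. Lower by as much were 3 of them (10.7%), beside 1.94% of all genes. Without the filter, 4 of 45 members (8.89%) were 2-fold apart in either direction, beside 2.57% of all genes. At 1.5-fold it was 6 of 28 (21.4%), beside 14.0%. Taken as a whole the members were balanced, with 14 of 28 higher and 14 lower, a median difference of 0.00 beside -0.01 for all genes that passed, and a median absolute difference of 0.25 beside 0.22. For 5 of these genes with small differences, FZD1, FZD5, WNT7B, WNT9A and KREMEN1, the direction depended on how probe sets were summarised. The typical member was thus about as far apart as the typical gene, and the 2-fold counts rest on 4 genes. Members and the gene lists below were chosen with earlier results of these data known, so their shares beside those of all genes are descriptive only.

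**Figure D1:**
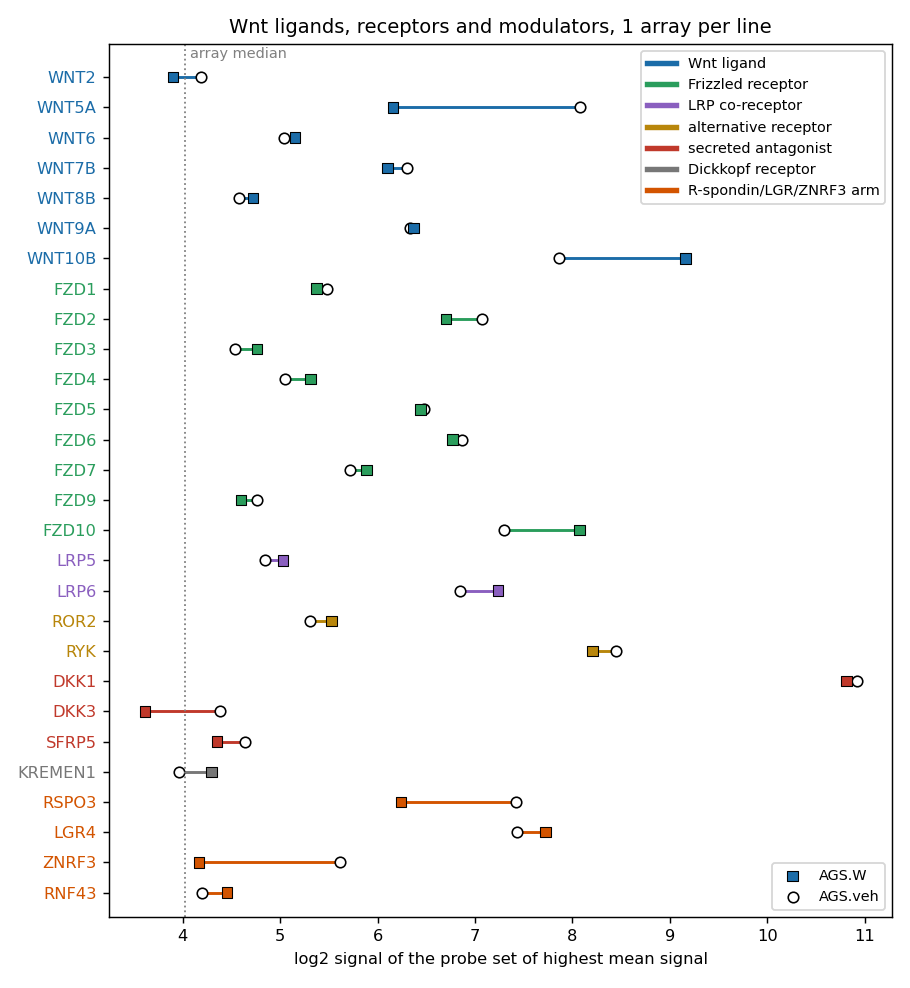
Log2 signal (horizontal axis) of the 28 members that passed the signal filter, in AGS.W (filled squares) and AGS.veh (open circles), 1 array each, coloured by role and joined by a line per gene. WNT5A, RSPO3 and ZNRF3 have their squares well to the left of their circles (6.16 against 8.08 for WNT5A), WNT10B has its square to the right (9.16 against 7.86), and most other pairs nearly coincide.

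Among the ligands, WNT5A had the widest gap of all members. Its probe set 205990_s_at had a log2 signal of 6.16 in AGS.W against 8.08 in AGS.veh, a difference of -1.92 or 3.78-fold. A separate probe set, 213425_at, had 3.81 in AGS.W against 5.52 in AGS.veh, a difference of -1.71. Both readings of the gene thus pointed the same way by a like amount, although the second lay below the array median in AGS.W, where signal may be background. WNT5A was the 29th lowest of the 12811 genes that passed the filter. In place of a replicate error, the robust SD of the differences of 500 genes with like signal was 0.38, which is a spread between genes and not between cultures.

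WNT10B, a ligand that acts through beta-catenin, was on the other side. Its single probe set, 206213_at, had 9.16 in AGS.W against 7.86 in AGS.veh, a difference of 1.30 or 2.46-fold, and it was the 110th highest of the genes that passed. The spread among genes of like signal was 0.37. WNT10B and WNT5A were the 2 ligands of 7 passing the filter that were 2-fold apart (28.6%, beside 3.78% of all genes that passed). They lay in opposite directions, and a share over 7 genes is a coarse one. The remaining 5 ligands were within 0.29 of zero. WNT6 had 5.15 in AGS.W against 5.04 in AGS.veh, WNT7B 6.10 against 6.30, WNT8B 4.72 against 4.57 and WNT9A 6.37 against 6.33. WNT2 had 3.90 in AGS.W against 4.19 in AGS.veh, reaching the median on the AGS.veh array alone.

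Signals of WNT1, WNT2B, WNT4, WNT5B, WNT7A, WNT10A, WNT11 and WNT16 lay below the median on both arrays, with differences from -0.32 for WNT10A to 0.24 for WNT2B. WNT7A and WNT16 had the same value on both arrays, 3.83 and 3.47. WNT5B, the closest relative of WNT5A, had 2.82 in AGS.W against 2.62 in AGS.veh. It thus gave no reading above background of whether it shared the difference of its paralog.

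In the R-spondin arm, the ligand RSPO3 and the ligase ZNRF3 were both lower, while the ligase RNF43 was not. RSPO3, a secreted amplifier of Wnt signalling, had 6.24 in AGS.W against 7.42 in AGS.veh on its single probe set, 228186_s_at. The difference was -1.18 or 2.27-fold, the 148th lowest, where genes of like signal had a spread of 0.38. ZNRF3, the ligase that R-spondin draws off and itself a target of beta-catenin, had 4.17 in AGS.W against 5.61 in AGS.veh on probe set 226360_at. This was a difference of -1.45 or 2.73-fold, the 73rd lowest, with a spread of 0.27 among genes of like signal. Its signal in AGS.W lay just above the array median. RNF43, the paralog of ZNRF3 and likewise a beta-catenin target, had 4.45 in AGS.W against 4.19 in AGS.veh, a difference of 0.26 in the other direction. This rests on 1 probe set whose signals lay little above the array medians of 4.02 (AGS.W) and 4.03 (AGS.veh). The contrast between RNF43 and ZNRF3 is therefore a weak one. The receptor LGR4 had 7.73 in AGS.W against 7.43 in AGS.veh, while its other probe sets differed by 0.00 and 0.25. RSPO1 and LGR5, the stem cell marker, had identical signals below the median on both arrays, 3.82 and 3.10. Of the 4 genes of this arm that passed the filter, 2 were 2-fold lower, each on 1 probe set, beside 1.94% of all genes, and a share over 4 genes is a coarse one. The other 2 were higher by 0.26 and 0.29.

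**Figure D2:**
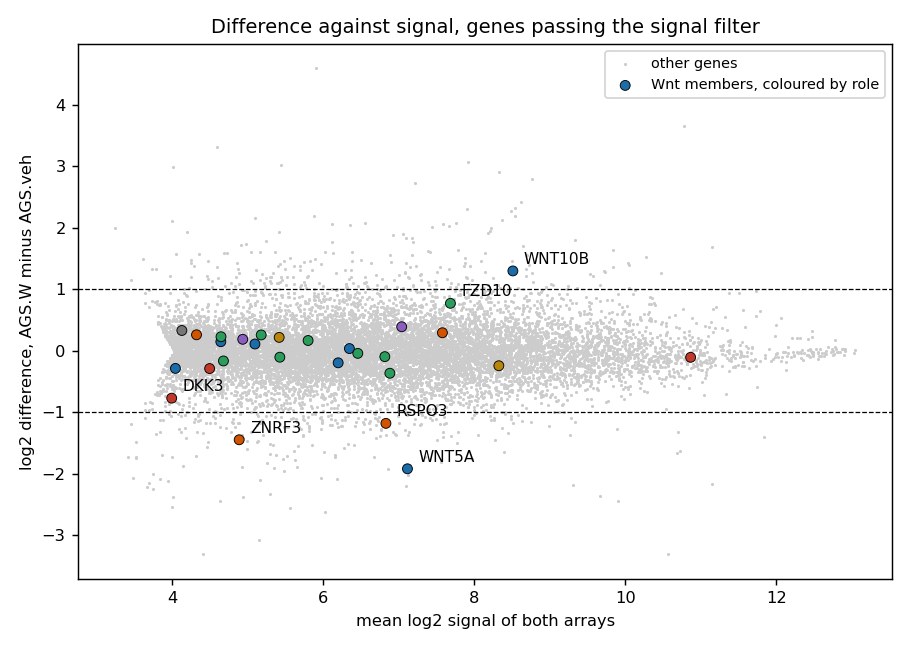
Log2 difference AGS.W minus AGS.veh (vertical axis) against the mean log2 signal of both arrays (horizontal axis) for genes that passed the filter, with Wnt members coloured by role over all other genes in grey and dashed lines at 2-fold. WNT10B lies above the upper line at 1.30 and WNT5A, ZNRF3 and RSPO3 below the lower line at -1.92, -1.45 and -1.18, while FZD10 (0.77) and DKK3 (-0.77) lie between the lines.

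Sequence before the start site is shown for 2 of the lower genes, WNT5A and RSPO3, and for DKK1, the classic feedback target of beta-catenin, whose signal hardly differed. With members on a single chromosome left out, the RefSeq table of GRCh38.p14 had an entry for 32 of the 48 members. Shown are the 250 bases before each annotated start, 5′ to 3′ on the strand of the gene, in lower case. Capitals mark matches on either strand to CTTTGA, the core that TCF/LEF factors read, or to TATAAA, the TATA box, and these matches do not overlap each other.
WNT5A, first start, chr3:55487307-55487556, minus strand: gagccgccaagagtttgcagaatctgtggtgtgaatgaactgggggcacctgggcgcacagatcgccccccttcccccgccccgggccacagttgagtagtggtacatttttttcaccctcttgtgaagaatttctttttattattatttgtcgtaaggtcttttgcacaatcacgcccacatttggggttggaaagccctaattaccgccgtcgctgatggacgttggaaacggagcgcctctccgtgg
WNT5A, second start, chr3:55481399-55481648, minus strand: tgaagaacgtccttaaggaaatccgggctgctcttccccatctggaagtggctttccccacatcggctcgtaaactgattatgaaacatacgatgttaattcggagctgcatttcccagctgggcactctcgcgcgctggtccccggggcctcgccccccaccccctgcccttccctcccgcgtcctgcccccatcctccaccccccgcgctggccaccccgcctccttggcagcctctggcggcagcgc
RSPO3, chr6:127118421-127118670, plus strand: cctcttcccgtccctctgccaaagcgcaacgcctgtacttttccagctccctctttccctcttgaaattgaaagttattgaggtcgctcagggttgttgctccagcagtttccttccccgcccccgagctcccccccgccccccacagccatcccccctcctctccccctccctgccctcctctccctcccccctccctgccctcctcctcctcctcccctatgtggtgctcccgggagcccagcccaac
DKK1, chr10:52314031-52314280, plus strand: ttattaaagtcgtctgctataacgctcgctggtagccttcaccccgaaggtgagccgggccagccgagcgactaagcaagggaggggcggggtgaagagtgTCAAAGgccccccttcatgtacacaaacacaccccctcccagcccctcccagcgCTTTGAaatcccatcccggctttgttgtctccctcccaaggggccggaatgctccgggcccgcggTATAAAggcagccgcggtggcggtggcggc
DKK1 alone of the 32 genes held the TCF/LEF core in this window, once on each strand, from 149 to 144 and from 95 to 90 bases before the start. The same core was present in 11.2% of 35116 promoters of that length, a set that was not cut by chromosome at this step. A TATAAA stood 30 to 25 bases before the DKK1 start, and 3 of the 32 members held one, beside 10.7% of all promoters. Neither motif was found in the windows of WNT5A or RSPO3. GC content was 52.8% and 64.4% before the starts of WNT5A, 64.8% before that of RSPO3 and 62.8% before that of DKK1. The arrays do not say which start of WNT5A was in use.

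None of the receptors was 2-fold apart. All 9 Frizzled genes that could be read passed the filter on both arrays, with differences from -0.37 to 0.77. FZD10 had the widest gap, 8.07 in AGS.W against 7.30 in AGS.veh, or 1.71-fold, on 1 probe set. FZD2 was lower on both of its probe sets, at 6.70 in AGS.W against 7.07 in AGS.veh on one and at 4.58 against 5.44 on the other, differences of -0.37 and -0.86. FZD7 was higher on both of its own, by 0.17 and 0.40, the first reading 5.88 in AGS.W against 5.72 in AGS.veh. These 2 were the only Frizzled genes with several probe sets that all pointed one way. FZD1, FZD3, FZD4, FZD5, FZD6 and FZD9 were between -0.17 and 0.26. In signal, FZD1 had 5.37 in AGS.W against 5.48 in AGS.veh, FZD3 4.76 against 4.53 and FZD4 5.31 against 5.05. FZD5 had 6.44 in AGS.W against 6.48 in AGS.veh, FZD6 6.77 against 6.86 and FZD9 4.60 against 4.76.

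The co-receptor LRP6 had 7.24 in AGS.W against 6.85 in AGS.veh, a difference of 0.39, but its other probe sets gave -0.09 and -0.25, so its mean over the 3 was 0.02. LRP5 was higher on both of its probe sets, by 0.19 and 0.33, reading 5.03 in AGS.W against 4.84 in AGS.veh on the first. The second LRP5 probe set lay below the median on both arrays, where signal may be background. Of the receptors for WNT5A, the kinase ROR2 had 5.53 in AGS.W against 5.31 in AGS.veh. RYK, a receptor with an inactive kinase domain, was read by 3 probe sets that gave nearly the same difference: -0.24, -0.24 and -0.26, the first reading 8.20 in AGS.W against 8.45 in AGS.veh. ROR1 was lower on all 3 of its probe sets, with differences of -0.43 to -0.60, but all lay below the median of both arrays (3.15 in AGS.W against 3.75 in AGS.veh on the highest). While WNT5A itself was 3.78-fold lower, its receptor ROR2 was 1.16-fold higher and its receptor RYK 1.18-fold lower.

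Secreted antagonists showed no 2-fold gap either. DKK1 had 10.81 in AGS.W against 10.92 in AGS.veh, a difference of -0.11. DKK3, which unlike other Dickkopf proteins is not known as a plain LRP6 blocker, had 3.61 in AGS.W against 4.38 in AGS.veh, a difference of -0.77 or 1.71-fold. It passed the filter only through AGS.veh, and its 5 other probe sets, all below the median on both arrays, gave -0.45 to 0.20. As the mean of all 6, DKK3 had -0.27, and with signals under the array median raised to it, -0.36. SFRP5, which binds Wnt ligands, had 4.35 in AGS.W against 4.64 in AGS.veh. KREMEN1, the Dickkopf receptor, had 4.29 in AGS.W against 3.96 in AGS.veh. It passed only through AGS.W, while its 4 other probe sets gave -0.36 to 0.00. DKK2, DKK4, SFRP1, SFRP2, SFRP4 and WIF1 lay below the median on both arrays, with differences from -0.23 for WIF1 to 0.54 for DKK2. DKK4 and SFRP4 had identical values on both arrays.

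**Figure D3:**
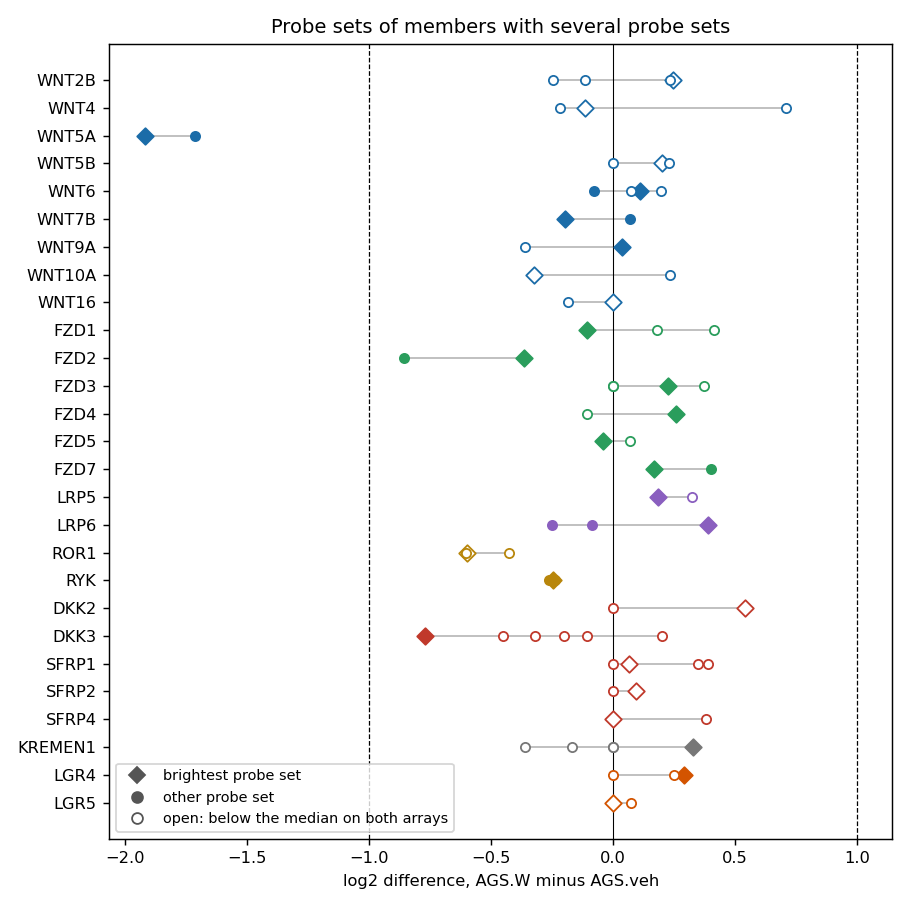
Log2 difference AGS.W minus AGS.veh (horizontal axis) of each probe set of the 27 members with several probe sets; diamonds are the probe sets of highest mean signal, circles the others, and open symbols lie below the median on both arrays. Both WNT5A symbols lie left of the 2-fold line at -1.92 and -1.71, no other gene crosses a line, and the probe sets of LRP6, DKK3 and KREMEN1 fall on both sides of zero.

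Counted by probe set, the 45 genes were read by 94. Past 2-fold were 5 of them, 1 higher and 4 lower (5.32% in all), beside 2.40% of the 41091 probe sets of 1 gene. Signals lay below the median on both arrays for 57 of the 94, and 15 of those 57 had identical values on both arrays. Of the 27 genes with several probe sets, 6 differed in 1 direction on all of them. WNT5A, FZD2, ROR1 and RYK were lower and FZD7 and LRP5 higher. All ROR1 probe sets and the second of LRP5 lay below the median on both arrays. For the whole array, the like shares of probe sets below the median, identical probe sets and genes with 1 direction were not counted. These numbers thus describe the members only. WNT10B, RSPO3, ZNRF3 and FZD10 were among the 18 members with a single probe set, so no further reading of them was at hand.

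Beyond the members, 6 lists of other Wnt pathway genes held 140 distinct genes, of which 104 passed the filter, 1 being higher and 5 lower by 2-fold or more (5.77%, beside 3.78% of all genes that passed). Most of these genes were close to zero too, with a median of -0.03. In secretion and ligand processing, 13 of 17 listed genes passed and 1 was 2-fold lower (7.69%, beside 1.94% of all genes). SULF2, a sulfatase that edits the heparan sulfate to which Wnt ligands bind, had 5.18 in AGS.W against 6.28 in AGS.veh, a difference of -1.11, and -0.77 on its other probe set. WLS, the carrier of Wnt proteins to the surface, had -0.20 and GPC6, a glypican, -0.14, while TRABD2B had 0.60, averaging 0.17 over its probe sets, SNX3 0.17 and VPS29 0.13. As such means WLS, GPC6 and VPS29 had -0.07, -0.07 and 0.02. Of other extracellular modulators and co-receptors, 9 of 21 passed and 1 was 2-fold lower (11.1%, beside 1.94% of all genes). LYPD6, a membrane-anchored protein that binds LRP6, had 4.03 in AGS.W against 5.12 in AGS.veh, a difference of -1.09. This signal in AGS.W lay just above the array median. Its other probe sets had -1.07 and -0.79 but lay below the median on both arrays, where signal may be background. LRP4 had -0.89 and TSPAN12 -0.38, against 0.36 for KREMEN2 and 0.16 for IGFBP4.

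Inside the cell, 26 of 30 cytoplasmic transducers passed, and 1 was 2-fold higher (3.85%, beside 1.83% of all genes). This was TNKS, a tankyrase that marks axin for degradation, at 7.10 in AGS.W against 6.09 in AGS.veh. Its difference of 1.02 became 0.40 when its 4 probe sets were averaged. The other TNKS probe sets all lay below the median on both arrays, where signal may be background. AXIN2, a scaffold of the destruction complex and a feedback target, had 0.82, averaging 0.25 over all its probe sets, and NKD2 had 0.58. FRAT1, CSNK1G1 and CCDC88C had -0.39, -0.38 and -0.35, averaging -0.39, -0.07 and -0.28. None of the 16 genes of the nuclear TCF/LEF machinery that passed was 2-fold apart on its probe set of highest mean signal. PYGO1 came nearest at 4.09 in AGS.W against 5.09 in AGS.veh, 1.998-fold, but averaged -0.51 over its probe sets. TBL1X had -0.72 and TLE4 -0.62, averaging -0.50 and -0.25. On the higher side, TBL1XR1 had 0.83, averaging 0.49, and LEF1 had 0.48, averaging 0.06. The other LEF1 probe sets lay below the median on both arrays. TLE3, a Groucho co-repressor, had 0.48 but averaged 0.72, since another of its 4 probe sets, also above the median on both arrays, had 5.86 in AGS.W against 4.71 in AGS.veh, a difference of 1.16.

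**Figure D4:**
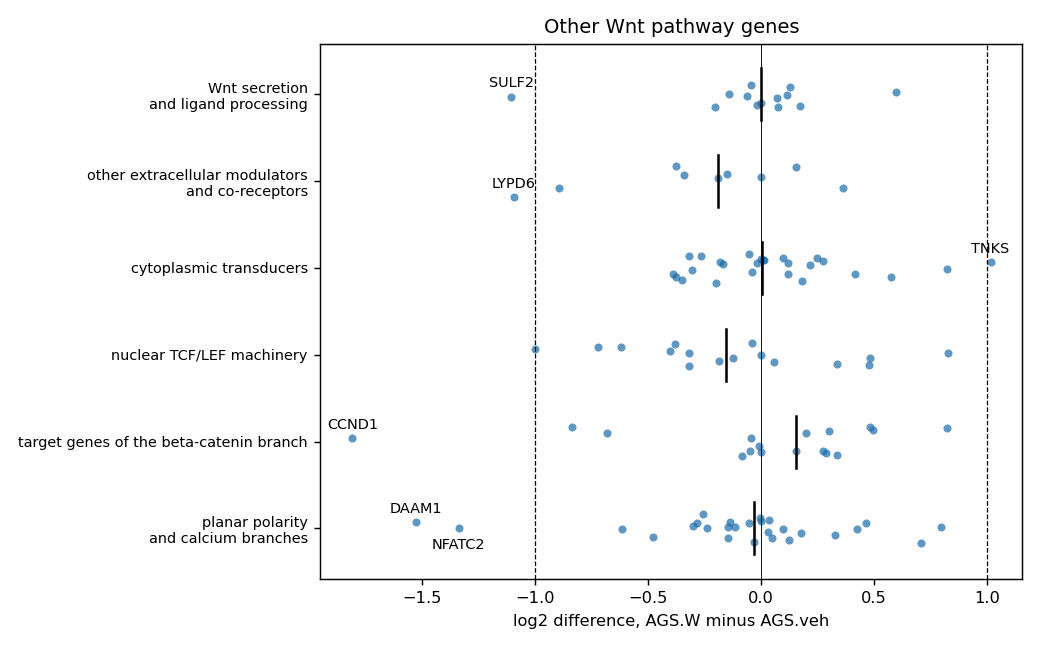
Log2 difference AGS.W minus AGS.veh (horizontal axis) of other Wnt pathway genes that passed the signal filter, 1 row per list and 1 point per gene, with black ticks at the list medians and dashed lines at 2-fold. TNKS passes the line on the higher side at 1.02, and CCND1, DAAM1, NFATC2, SULF2 and LYPD6 pass it on the lower side.

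Target genes of the beta-catenin branch lay on both sides of zero. Of 26 listed, 17 passed, and 1 was 2-fold lower (5.88%, beside 1.94% of all genes). CCND1, cyclin D1, had 6.66 in AGS.W against 8.46 in AGS.veh, a difference of -1.81, with -1.91 on its other probe set. CD44, an adhesion receptor, had -0.84, averaging -0.10 over its 13 probe sets, and the protease MMP7 had -0.68. AXIN2, PLAUR and LEF1 were the highest of the list at 0.82, 0.50 and 0.48, averaging 0.25, 0.54 and 0.06, and the list median was 0.16. Members known as targets of the same branch were as mixed, with ZNRF3 at -1.45, DKK1 at -0.11 and RNF43 at 0.26.

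In the planar polarity and calcium branches, 27 of 34 genes passed and 2 were 2-fold lower (7.41%, beside 1.94% of all genes). DAAM1, a formin that links Dishevelled to RHOA, had 5.09 in AGS.W against 6.62 in AGS.veh, a difference of -1.53. Its 4 other probe sets were lower as well, with differences of -0.29 to -1.58, and the mean of the 5 was -0.96. NFATC2, a transcription factor that calcium signals release, had 7.78 in AGS.W against 9.12 in AGS.veh, a difference of -1.34. Another of its 4 probe sets, also above the median on both arrays, gave -1.41, reading 7.47 for AGS.W and 8.89 for AGS.veh. The rest gave -0.20 and -0.18 but lay below the median on both arrays, and the mean of all 4 was -0.78. PRKCA had -0.61, averaging -0.08. On the higher side, INVS had 0.80, averaging 0.29 over its probe sets, NFATC1 0.71, averaging 0.05, and MAPK9 0.46, averaging 0.42. The other INVS probe sets lay below the median on both arrays. The list median was -0.03, and as the mean of all probe sets no gene of this list was 2-fold apart.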

How the data were processed

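RNA of AGS.W and AGS.veh cells was measured on 1 Affymetrix U133 Plus 2.0 array per line. The authors deposited signals per probe set, taken here as log2 from the labels and the range, with nearly equal distributions on both arrays. The labels list MAS5 and RMA as tools, without versions; how background was corrected is not given in the sources used here. These values were used unchanged, without 62 control probe sets. Platform annotation assigned 41091 of 54613 probe sets to 1 gene, and symbols were updated through RefSeq for GRCh38.p14. Probe sets of several genes (1801) or of none (11721) were not used for genes. Genes were called at 2-fold, the fold the methods use, without their FDR, which needs replicate arrays. Members and gene lists were chosen with earlier results of these data known. All members that passed the filter are named, and of each other list up to 3 genes in each direction, largest difference first. No test and no set test was run, since 1 array per line limits the precision. The steps were tested on simulated data with planted differences wider than any named here, which checks the code and not calls near 2-fold. Alternatives were scaling (median, quantile, a lowess curve of span 0.3), signal filters, fold thresholds of 1.5 and 3, and the summary of probe sets. An offset for linear values did not apply. Tools were Python 3.11.15 with pandas 2.3.3, numpy 2.4.6, matplotlib 3.10.9 and statsmodels 0.14.6.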

Additional observations from a re-analysis of the deposited data

How the results depend on the processing

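No paired analysis was possible because AGS.W and AGS.veh had a single array apiece, which also left no replicate to leave out. At 1.5-fold, 2 members were higher and 4 lower, FZD10 and DKK3 being added. Of the 104 genes of the other pathway lists that passed, 18 were apart (17.3%, beside 14.0% of all genes that passed). At 3-fold, 0 members were higher, 1 was lower (WNT5A), and 1 gene of the other lists was apart (CCND1). With the mean of all probe sets the other lists also kept 1, CCND1, since DAAM1, NFATC2, LYPD6, SULF2 and TNKS had -0.96, -0.78, -0.98, -0.94 and 0.40. When each gene took whichever passing probe set was farthest apart, 7 were called, TLE3 being added. The shares over all genes were not counted at 3-fold or under these summaries of probe sets. Without _x_at and _s_at probe sets the median of the members was 0.11, against 0.00 with them, and RSPO3 had no probe set left. The upper quartile filter left out ZNRF3 of the members and LYPD6 of the other lists. The sign changed for 6 values of 5 genes: as the mean of probe sets FZD1 had 0.16, FZD5 0.01, WNT9A -0.16 and KREMEN1 -0.04, and without _x_at and _s_at probe sets FZD5 and WNT7B had 0.07 each. Apart from these exceptions, WNT10B, WNT5A, ZNRF3 and RSPO3 remained 2-fold apart under scaling, the other filters and each summary of probe sets. A move was called small where it was under the robust spread of genes with like signal, which held for 225 of 234 values of 34 genes, and scaling moved none of these genes by more than 0.0446. For genes with 1 probe set most alternatives repeat the same value, so this share does not measure stability. Signals under the array median may be background, which limits what can be said of the 17 members there.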
